A study of Mus musculus with 6 samples.

Results

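Genes of extracellular matrix turnover were followed in the ventricles of mice given 2 aminoglycoside antibiotics, 10 genes in all: the matrix metalloproteinase genes Mmp2, Mmp14 and Mmp15, the Adamts proteinase genes Adamts1, Adamts2 and Adamts5, and the genes of the tissue inhibitors of metalloproteinases, Timp1, Timp2, Timp3 and Timp4. The genes were chosen by symbol, with earlier results of these data known. All 10 were found among the 18158 features of the deposited expression table. Each of the 6 libraries holds the ventricular RNA of 1 mouse of the outbred CD1 stock, 3 months old. The 3 vehicle mice received daily injections of PBS, and the 3 treated mice received paromomycin and neomycin (Paro/Neo) intraperitoneally at 150 mg/kg, 2 times a day, both groups for 14 days. No genotype, transgene or sex is given in the labels. Per the series' design text, the comparison asks how expression differs under a treatment meant to suppress the activity of the transcription factors Meis1 and Hoxb13.

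Matrix metalloproteinases are zinc-dependent enzymes, made as inactive precursors, that cleave collagens, laminins, fibronectin and other matrix proteins. The Adamts enzymes are secreted relatives with thrombospondin repeats, several of which cut proteoglycans such as versican or trim procollagens. Timp proteins block matrix metalloproteinases by binding their active site, and in the heart the balance of enzymes and inhibitors is known to bear on scar formation and chamber shape. Only mRNA was measured here, not enzyme or inhibitor activity.

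No member passed the test between the groups. With limma on log2(TPM + 1) and Benjamini-Hochberg adjustment over the 12409 tested genes, 0 of the 10 genes had an adjusted p under 0.05, where 0.137% of all tested genes did, and 4 had an unadjusted p under 0.05, all with lower means in Paro/Neo hearts, where 4.37% of tested genes did in that direction. Those 4 were Mmp2, Mmp14, Adamts2 and Timp1. No member had an unadjusted p under 0.05 on the higher side, where 3.24% of tested genes did. The unadjusted count on the lower side depended on single libraries: Mmp14 and Adamts2 kept a p under 0.05 without any 1 library, while the count fell to 2 without vehicle replicate 3 (Mmp2 p 0.0506, Timp1 p 0.0599), and to 3 without vehicle replicate 1 (Mmp2 p 0.072), vehicle replicate 2 (Timp1 p 0.0768) or Paro/Neo replicate 1 (Timp1 p 0.0638; limma). With voom on inferred whole reads it was again 4, and weighting the libraries by their spread gave 4 on the lower side and 2, Timp3 and Timp4, on the higher side. For 5 of the 10 genes, these 4 and Timp2, each Paro/Neo heart lay below each vehicle heart, which held for 8.22% of tested genes, and for 0 genes each Paro/Neo heart lay above, which held for 6.04%. Since the genes were chosen with earlier results of these data known, the counts beside these shares are descriptions and no test of the 10 genes as a set. Timp3 and Timp4 had higher means in Paro/Neo hearts but overlapped with vehicle, and Mmp15 had nearly equal means. TPM is a transcript's share of its library, corrected for transcript length, so levels can be compared between genes.

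Libraries held at least 9556387 to 15969980 reads each, as inferred from the steps of the TPM values. Paro/Neo replicate 1 stood apart from the others, with a mean correlation of 0.9755 with the other libraries on the log2(TPM + 1) scale across tested genes, against 0.9814 to 0.9853. It was the lowest of the 6 libraries for 9 of the 10 genes, where it was lowest for 32.8% of the tested genes that had a single lowest library. Results are therefore given with and without it. Cardiomyocyte markers were abundant in every library, with a summed level of 112306 to 142931 TPM over 7 genes including Myl2 and Tnnt2. Of the listed markers of fibroblasts, endothelium, mural cells, macrophages, neutrophils and epicardium, 0 were at 0 in all libraries. In whole ventricle, fewer cells of a type and less RNA per cell cannot be told apart.

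The order of the genes by level differed little between hearts. That order rests on the gene lengths behind the TPM values, and other lengths could change it. Timp3 was the most abundant of the 10 in all 6 libraries and Timp2 ranked second in all 6, while Adamts2 and Timp1 were the 2 least abundant in all 6. Over the 6 libraries, mean levels ran from 119.5 TPM for Timp3, above 90.96% of tested genes, to 3.98 TPM for Timp1, above 21.98% of them. Mmp2 and Timp4 exchanged places between the groups: Mmp2 ranked 3 and Timp4 ranked 4 in every vehicle heart, and Timp4 ranked 3 and Mmp2 ranked 4 in every Paro/Neo heart. Among Paro/Neo hearts, though, the range of Mmp2 (22.2 to 47.2 TPM) overlapped with that of Timp4 (33.96 to 70.1 TPM). Mmp14 ranked 6 in every vehicle heart and 8 in every Paro/Neo heart, below Mmp15 and Adamts1. Among vehicle hearts the range of Mmp14 overlapped with those of Mmp15 and Adamts1, so the order of these 3 genes did not go beyond their spread there. Among Paro/Neo hearts Mmp14 (6.81 to 10.9 TPM) still overlapped with Adamts1 and lay below the range of Mmp15 (12.2 to 14.2 TPM).

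**Figure D1:**
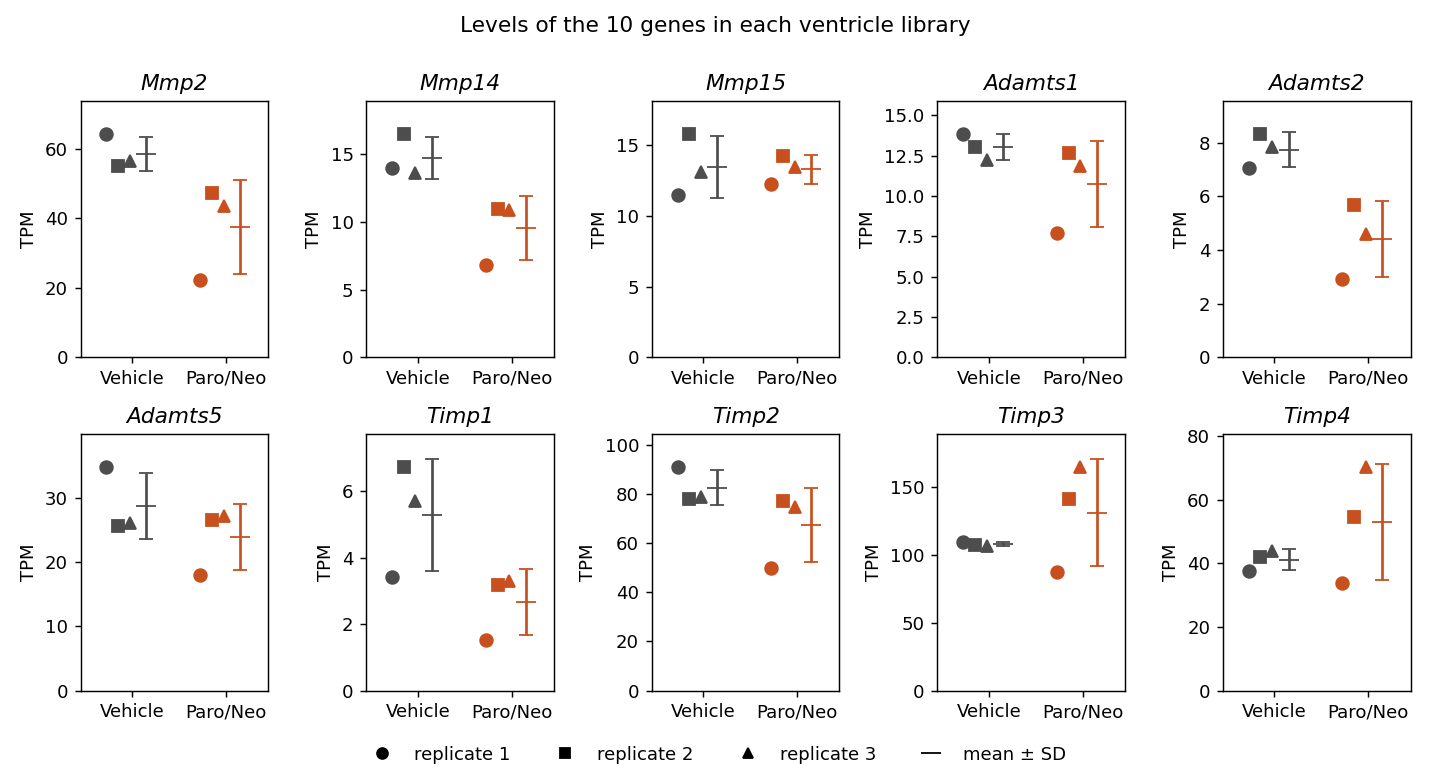
Level of each gene in TPM (y axes, from 0) in the 3 vehicle and 3 Paro/Neo libraries; circles, squares and triangles are replicates 1, 2 and 3, and bars are the mean ± SD. For Mmp2, Mmp14, Adamts2, Timp1 and Timp2 the Paro/Neo points lie below all vehicle points, and Paro/Neo replicate 1 is the lowest point for every gene but Mmp15.

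The stretches of DNA just upstream of 4 of the genes are shown, chosen by their values: Mmp14, Adamts2 and Timp1 had lower levels in every Paro/Neo heart than in any vehicle heart, and Timp4 did not. The window of Timp2, also lower in every Paro/Neo heart, is not printed because 108 of its bases lie in an annotated exon. The sequences are from RefSeq on GRCm38.p6, which is mm10, and entries were found for 8 of the 10 genes. Each is the 250 bases before the gene's start, or 249 for Adamts2, where the last base lies in an annotated exon, read 5′ to 3′ on the gene's strand. They lie at chr14:54431348-54431597 on the plus strand for Mmp14, chr11:50601835-50602083 on the plus strand for Adamts2, chrX:20869916-20870165 on the plus strand for Timp1 and chr6:115252206-115252455 on the minus strand for Timp4. Capitals mark matches on either strand to 5 motifs: the GC box GGGCGG, the CCAAT box CCAAT, the Ets element AGGAAG, the TATA box TATAAA and the AP-1 element TGANTCA. In the Mmp14 window a CCAAT match and a GC box share 1 base.
Mmp14: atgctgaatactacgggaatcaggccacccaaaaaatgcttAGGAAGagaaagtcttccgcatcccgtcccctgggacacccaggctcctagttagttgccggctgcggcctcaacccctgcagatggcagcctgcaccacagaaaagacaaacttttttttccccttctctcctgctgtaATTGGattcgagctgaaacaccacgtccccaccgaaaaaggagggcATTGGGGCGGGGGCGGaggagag
Adamts2: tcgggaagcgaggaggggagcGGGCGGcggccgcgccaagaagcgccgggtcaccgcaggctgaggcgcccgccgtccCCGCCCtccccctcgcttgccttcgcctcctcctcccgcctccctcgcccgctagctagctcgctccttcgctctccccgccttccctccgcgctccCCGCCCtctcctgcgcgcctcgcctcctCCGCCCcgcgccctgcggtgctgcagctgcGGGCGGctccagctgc
Timp1: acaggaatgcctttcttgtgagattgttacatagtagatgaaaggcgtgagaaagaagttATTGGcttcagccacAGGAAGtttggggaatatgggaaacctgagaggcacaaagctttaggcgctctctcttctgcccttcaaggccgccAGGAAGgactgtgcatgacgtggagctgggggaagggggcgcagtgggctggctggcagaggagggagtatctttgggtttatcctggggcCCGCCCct
Timp4: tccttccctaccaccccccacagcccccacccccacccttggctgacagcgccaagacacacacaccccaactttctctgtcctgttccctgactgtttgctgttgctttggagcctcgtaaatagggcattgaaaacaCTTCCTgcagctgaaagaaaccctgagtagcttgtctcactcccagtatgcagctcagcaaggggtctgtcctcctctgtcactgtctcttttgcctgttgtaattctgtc
The window of Adamts2 had a GC content of 78.0%, against 55.2% for Mmp14, 54.4% for Timp1, 53.6% for Timp4 and a median of 52.4% over 32851 such windows. It held 5 GC boxes, while Mmp14 held 2, Timp1 held 1 and Timp4 held 0. A GC box was present in 7 of the 8 member windows and in 32.74% of all windows. That share is not over windows of like GC content, and those of Mmp15, Adamts1, Timp2 and Timp3 were at 63.6% to 68.0%. The Ets element occurred 2 times in the Timp1 window, and once each in those of Mmp14 and Timp4, and it was in 29.48% of all windows. CCAAT occurred in 3 of the 8 member windows and in 33.85% of all, TATAAA in 1 of 8, that of Adamts1, and in 12.37% of all, and TGANTCA in 0 of 8 and in 6.75% of all. GC boxes were also present for genes whose groups overlapped: the windows of Mmp15, Adamts1 and Timp3 held 1, 3 and 1. That of Timp3 lies in annotated exon bases. The Timp2 window, with its 108 exonic bases, held 1. A relation between these matches and the levels was not tested. A match is a run of letters and not a measured binding site.

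Mmp2 encodes gelatinase A, which digests denatured collagen and basement membrane collagen. It is found on the plus strand of chromosome 8, at 92827291 to 92853420, with 14 merged exons (coordinates here and below are of whole genes in GENCODE M21 on GRCm38). Its levels in replicates 1 to 3 were 64.3, 55.2 and 56.4 TPM among the vehicle hearts and 22.2, 47.2 and 43.4 TPM among the Paro/Neo hearts. The groups did not overlap, and Paro/Neo replicate 1 lay far below the other treated hearts. The vehicle mean was 58.6 TPM ± 4.94 and the Paro/Neo mean 37.6 TPM ± 13.5 (SD, n = 3 each), with a log2 change of -0.69 ± 0.26 (SE; 95% interval -1.29 to -0.10) and an adjusted p of 0.568 by limma. Without Paro/Neo replicate 1 the log2 change was -0.36 ± 0.10, with an adjusted p of 0.443.

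Mmp14 encodes a membrane-anchored metalloproteinase, MT1-MMP, which cleaves fibrillar collagen and activates the Mmp2 precursor at the cell surface with the help of Timp2. It lies on chromosome 14 at 54431612 to 54445364. The vehicle hearts had 14.0, 16.5 and 13.6 TPM and the Paro/Neo hearts 6.81, 10.9 and 10.9 TPM. Again the groups did not overlap and replicate 1 was the lowest treated heart. The log2 change was -0.60 ± 0.18 (SE; 95% interval -1.02 to -0.18) with an adjusted p of 0.483 by limma, and it was -0.40 ± 0.11 without Paro/Neo replicate 1.

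Mmp15 encodes MT2-MMP, a second membrane-type enzyme, and lies on chromosome 8 at 95352268 to 95375080, on the same chromosome as Mmp2. The vehicle hearts had 11.5, 15.8 and 13.1 TPM and the Paro/Neo hearts 12.2, 14.2 and 13.4 TPM. The treated values lay inside the vehicle range, and Paro/Neo replicate 1 was not apart from the others. The log2 change was -0.01 ± 0.14 (SE), and its 95% interval ran from -0.32 to 0.31, or ratios of 0.800 to 1.24.

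Of the 3 Adamts genes, Adamts2 differed most between the groups. It encodes a procollagen N-proteinase, which removes the amino-terminal propeptide of fibrillar procollagens, and lies on chromosome 11 at 50602084 to 50807573. Levels were 7.05, 8.32 and 7.84 TPM among vehicle hearts against 2.91, 5.69 and 4.61 TPM among treated ones, from at least 214 to 524 reads per library. All 3 treated hearts were below all vehicle hearts. Its log2 change of -0.72 ± 0.20 (SE; 95% interval -1.18 to -0.27) had the smallest p of the 10 genes, 0.00638 before and 0.397 after adjustment by limma. Without Paro/Neo replicate 1 it was -0.51 ± 0.13.

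Adamts1 and Adamts5 encode enzymes that cleave versican and aggrecan. They are neighbours on the minus strand of chromosome 16, at 85793827 to 85803113 and 85856173 to 85901828, 53059 bp apart with 0 protein-coding genes between them. Adamts1 had 13.9, 13.0 and 12.2 TPM in the vehicle hearts and 7.69, 12.7 and 11.9 TPM in the treated ones. Adamts5 had 34.8, 25.6 and 26.1 TPM in the vehicle hearts and 18.0, 26.5 and 27.2 TPM in the treated ones. For both, Paro/Neo replicate 1 was the only treated heart below the vehicle range, apart from Adamts1 in replicate 3, which was at 11.9 TPM against a vehicle minimum of 12.2. The log2 changes were -0.28 ± 0.18 for Adamts1 and -0.27 ± 0.19 for Adamts5 (SE), with adjusted p of 0.737 and 0.758 by limma. Without Paro/Neo replicate 1 they were -0.08 ± 0.10 and -0.09 ± 0.14.

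Among the inhibitors, Timp1 and Timp2 had lower means in Paro/Neo hearts. Timp1, a soluble inhibitor that is induced in injured and fibrotic tissue, had 3.43, 6.72 and 5.71 TPM in the vehicle hearts and 1.53, 3.19 and 3.30 TPM in the treated ones. The groups did not overlap, but vehicle replicate 1 lay close to Paro/Neo replicates 2 and 3. This is the least abundant of the genes, with at least 25 to 41 reads in vehicle and 11 to 19 in Paro/Neo libraries, and so few reads limit its precision. Its log2 change was -0.78 ± 0.27 (SE; 95% interval -1.40 to -0.16) with an adjusted p of 0.525 by limma, and -0.53 ± 0.24 without Paro/Neo replicate 1, with an unadjusted p of 0.0638. Timp2, which also takes part in Mmp2 activation, had 90.7, 78.0 and 78.8 TPM in the vehicle hearts and 49.96, 77.1 and 74.7 TPM in the treated ones. Here replicates 2 and 3 lay just under the vehicle range and replicate 1 far under it. The log2 change of -0.31 ± 0.17 (SE; adjusted p 0.708 by limma) became -0.12 ± 0.09 without that library.

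Timp3 and Timp4 ran the other way in 2 of the 3 treated hearts. Timp3, an inhibitor held in the matrix that also blocks Adam and Adamts enzymes, had 109.6, 107.7 and 106.6 TPM in the vehicle hearts and 87.6, 141 and 165 TPM in the treated ones. The vehicle hearts were close together, and the treated hearts lay on both sides of them, with replicate 1 below and replicates 2 and 3 above. Timp4, an inhibitor known for its high expression in the heart, had 37.6, 41.9 and 43.96 TPM in the vehicle hearts and 33.96, 54.7 and 70.1 TPM in the treated ones, in the same arrangement. With all 6 libraries the log2 changes were 0.23 ± 0.21 for Timp3 and 0.30 ± 0.23 for Timp4 (SE; adjusted p 0.799 and 0.778 by limma). Without Paro/Neo replicate 1 they were 0.49 ± 0.09 and 0.58 ± 0.13, with unadjusted p of 0.000962 and 0.00308 and adjusted p of 0.223 and 0.310 by limma.

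Taking the 5 remaining libraries, Mmp2, Mmp14 and Adamts2 had an unadjusted p under 0.05 on the lower side, where 3.96% of tested genes did, and Timp3 and Timp4 on the higher side, where 3.33% did (limma). None passed after adjustment, where 0.0484% of tested genes did. The median log2 change of the 10 genes was -0.10 in these libraries and -0.30 in all 6, against -0.01 and -0.02 over all tested genes. The groups did not overlap for 5 genes on the lower side, the same 5 as above, where 12.8% of tested genes did not, and for Timp3 and Timp4 on the higher side, where 10.7% did not.

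**Figure D2:**
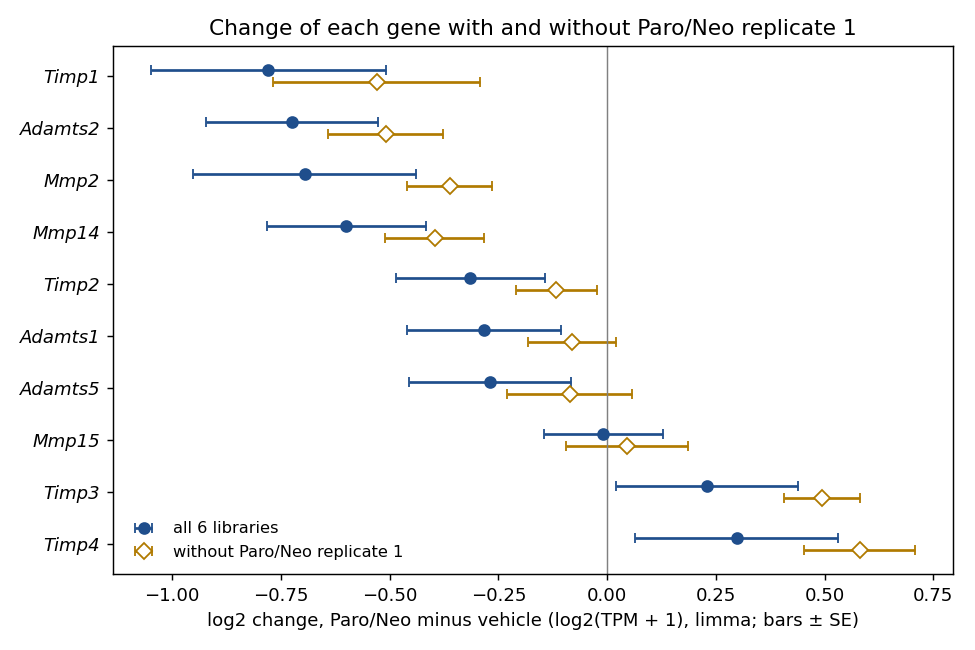
Log2 change of each gene, Paro/Neo minus vehicle on log2(TPM + 1), with its SE from limma (x axis), for all 6 libraries (filled circles) and without Paro/Neo replicate 1 (open diamonds). Without that library the 4 lowest genes move closer to 0 and Timp3 and Timp4 move away from 0, to 0.49 and 0.58.

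Timp1, Timp3 and Timp4 lie inside synapsin genes on the opposite strand, Timp1 in Syn1 on chromosome X at 20870166 to 20874735, Timp3 in Syn3 on chromosome 10 at 86300372 to 86349506 and Timp4 in Syn2 on chromosome 6 at 115241892 to 115252205. Their annotated exons share 0 bases between Timp1 and Syn1, 1733 between Timp3 and Syn3 and 90 between Timp4 and Syn2. The libraries were stranded, but no source used here gives the strand setting of the counting, so reads in the shared bases may have been assigned to either gene or to neither. The synapsin genes were low in every library: Syn1 reached at most 0.288 TPM, Syn3 0.120 TPM and Syn2 1.06 TPM. Timp2 lies on chromosome 11 at 118301069 to 118355740, overlapping the gene Cep295nl on the same strand with 0 shared exonic bases.

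Ratios between members were also taken within each library, where a scaling factor of the library cancels. Sums over genes still depend on the gene lengths behind the TPM values. These ratios are descriptions without a test, since the genes were chosen with their values known. The 4 Timp genes summed to 241, 234 and 235 TPM in the vehicle hearts and to 173, 276 and 313 TPM in the treated ones. The 6 proteinase genes summed to 145, 134 and 129 TPM in the vehicle hearts and to 69.8, 117 and 111 TPM in the treated ones. The ratio of Timp to proteinase transcripts was thus 1.66, 1.74 and 1.82 in vehicle and 2.48, 2.35 and 2.81 in Paro/Neo hearts. All 3 treated hearts lay above all vehicle hearts, Paro/Neo replicate 1 included, although its own levels of both sums were the lowest. In log2 units the proteinase-to-Timp ratio was -0.80 ± 0.07 in vehicle and -1.35 ± 0.13 in the treated hearts (SD, n = 3 each), a change of -0.55. Leaving out each library in turn gave -0.60 to -0.47.

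The ratio of Mmp2 to Timp2 was nearly constant among vehicle hearts, at log2 values of -0.50, -0.50 and -0.48, and lower in each Paro/Neo heart, at -1.17, -0.71 and -0.78. Mmp14 to Timp2 was at -2.69, -2.24 and -2.53 in vehicle and -2.88, -2.82 and -2.78 in Paro/Neo hearts, without overlap, though vehicle replicate 1 lay close to the treated hearts. Mmp2 to Mmp14 overlapped between the groups, with means of 2.00 ± 0.23 and 1.94 ± 0.21 (log2, SD, n = 3 each). Within the inhibitors, Timp1 to Timp3 went from -5.00, -4.00 and -4.22 in vehicle to -5.84, -5.47 and -5.64 in Paro/Neo hearts, a difference of -1.24 in the means. Timp3 made up 45.3% to 45.95% of the summed Timp level in vehicle and 50.6% to 52.6% in Paro/Neo hearts. These shares depend on the few abundant genes: Mmp2 alone was 41.0% to 44.2% of the proteinase sum in vehicle and 31.7% to 40.3% in Paro/Neo hearts.

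**Figure D3:**
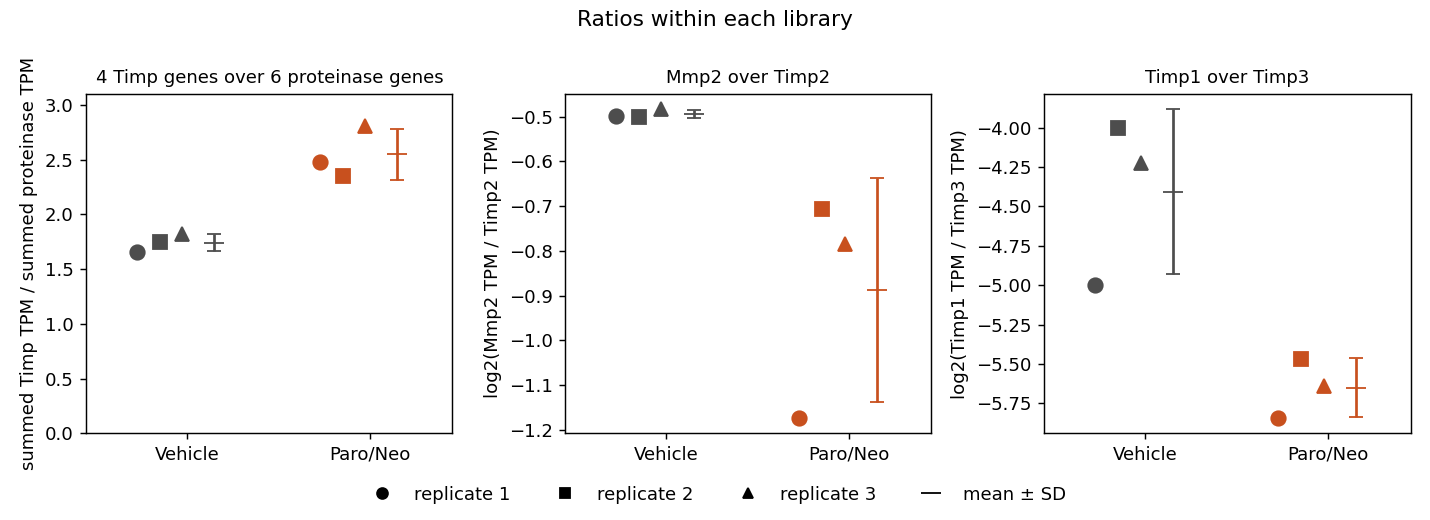
Ratios within each library: summed TPM of the 4 Timp genes over the 6 proteinase genes (left, linear axis from 0), and log2 ratios of Mmp2 to Timp2 (middle) and Timp1 to Timp3 (right); symbols are replicates 1 to 3, bars the mean ± SD. In each panel the groups do not overlap, with the Timp to proteinase ratio at 1.66 to 1.82 in vehicle and 2.35 to 2.81 in Paro/Neo hearts.

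Some members followed one another closely from heart to heart. Likeness was measured as the root mean square difference of log2(TPM + 1), each gene centred on its mean over the 6 libraries. Among the 45 pairs of members the nearest were Adamts1 with Timp2 (0.04), Adamts5 with Timp2 (0.08), Timp3 with Timp4 (0.09), Adamts1 with Adamts5 (0.11) and Mmp14 with Adamts2 (0.11). The same measure against 9108 other tested genes with a mean of 5 TPM or more was taken for the 3 members of smallest p. Nearest to Mmp14 were Pcolce, which encodes the procollagen C-proteinase enhancer (0.04), Nt5dc2 (0.04) and the non-muscle myosin gene Myh9 (0.05). Nearest to Adamts2 were Thy1, a surface glycoprotein gene of fibroblasts and other cells (0.07), Fahd1 (0.09) and the collagen VI gene Col6a3 (0.09), and nearest to Timp1 were Scd2 (0.16), Fahd1 (0.18) and the basement membrane collagen gene Col4a1 (0.19). Pcolce had 59.4, 73.1 and 60.0 TPM in the vehicle hearts and 29.96, 49.4 and 49.9 TPM in the treated ones, much the same arrangement of the 6 hearts as Mmp14. That likeness follows from its choice as the nearest profile. The measure was not taken without Paro/Neo replicate 1, the lowest library for most members.

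In the rest of the metalloproteinase family, 17 of 20 listed Mmp genes were in the table, 2 of them, Mmp10 and Mmp20, at 0 in every library, and 6 were high enough to test. None of the 6 passed (limma; 1 higher and 1 lower at an unadjusted p under 0.05), with a median log2 change of -0.21 against -0.02 over all tested genes. For this list and those below, the unadjusted shares over all tested genes were 4.37% lower and 3.24% higher (limma). The shares whose groups did not overlap were 8.22% on the lower and 6.04% on the higher side. Mmp13, the collagenase-3 gene, had the smallest p: it had 1.55, 1.53 and 1.90 TPM in the vehicle hearts and 3.74, 2.85 and 3.06 TPM in the treated ones, with each treated heart above each vehicle heart (log2 change 0.66 ± 0.15 SE, adjusted p 0.246). It rested on 25 to 34 reads per vehicle and 51 to 81 reads per Paro/Neo library, as lower estimates. Paro/Neo replicate 1, the lowest library for most members, was the highest for Mmp13. Mmp23 (11.8 TPM ± 1.18 against 8.47 TPM ± 1.19) and Mmp19 (3.96 TPM ± 0.65 against 2.85 TPM ± 0.68, vehicle first) did not overlap between the groups on the lower side.

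Of 16 other Adamts genes, 14 were listed and 7 tested, and 0 passed (limma; 1 lower and 0 higher unadjusted), with a median log2 change of -0.10. Adamts15, a versican-cleaving relative of Adamts1, was at 3.19 TPM ± 0.55 against 1.70 TPM ± 0.79 (vehicle first, adjusted p 0.525), Adamts9 at 6.36 TPM ± 1.79 against 4.60 TPM ± 0.46, and Adamts6 at 1.45 TPM ± 0.39 against 1.93 TPM ± 0.73. Of the Adamts-like genes, whose products lack the catalytic domain, 0 of 6 tested passed (limma; 1 lower unadjusted). Among them Adamtsl2, whose product binds microfibrils, had 3.35, 7.29 and 5.14 TPM in the vehicle hearts and 1.07, 3.23 and 2.95 TPM in the treated ones. Adamtsl4 (6.51 TPM ± 0.69 against 5.35 TPM ± 2.02) and Adamtsl3 (1.95 TPM ± 0.41 against 1.77 TPM ± 0.56) overlapped between the groups. The 7 tested Adam genes, membrane-bound sheddases in the main, all had negative log2 changes, from -0.47 to -0.10, where 53.7% of all tested genes had negative ones. Of these 7, 0 passed (limma; 1 lower unadjusted). Adam17, the TNF-converting enzyme, was at 46.4 TPM ± 3.79 and 38.5 TPM ± 2.82, without overlap. Adam15 (26.6 TPM ± 5.61 against 20.1 TPM ± 2.91) and Adam22 (3.41 TPM ± 1.11 against 2.15 TPM ± 0.52) overlapped.

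The activators of metalloproteinases and the plasminogen system, 12 tested genes, held 0 past the threshold (limma; 4 lower and 0 higher unadjusted) and had a median log2 change of -0.27. These 4 were Serpine2, Serpinf1, Ctsk and the cathepsin B gene Ctsb. The plasminogen activator genes Plat (17.9 TPM ± 1.73 against 14.5 TPM ± 2.36) and Plau (9.92 TPM ± 1.79 against 10.6 TPM ± 2.32, vehicle first) overlapped between the groups. Serpine2, a serine protease inhibitor (49.1 TPM ± 7.21 against 35.3 TPM ± 4.71, vehicle first), and Serpinf1, which encodes pigment epithelium-derived factor (65.3 TPM ± 1.06 against 43.0 TPM ± 12.9), did not overlap between the groups, while the cathepsin K gene Ctsk did (12.9 TPM ± 1.10 against 8.29 TPM ± 3.57). Furin, the convertase that activates Mmp14, was at 10.9 TPM ± 0.64 and 11.6 TPM ± 1.16. Among 10 tested genes of other inhibitors and receptors 0 passed (limma; 2 lower unadjusted). These 2 were the Kunitz-type inhibitor gene Tfpi2 (5.31 TPM ± 0.93 against 2.93 TPM ± 0.40, adjusted p 0.254) and Thbs1, which encodes thrombospondin 1 (4.73 TPM ± 0.86 against 2.64 TPM ± 0.35, adjusted p 0.271), and neither overlapped between the groups. Lrp1, an endocytic receptor that takes up proteinases and inhibitors, was at 10.2 TPM ± 1.62 and 7.64 TPM ± 3.49, with overlap. Reck, a membrane-anchored inhibitor, was at 5.13 TPM ± 0.29 and 4.78 TPM ± 1.69. The medians of several of these lists rested on Paro/Neo replicate 1: without it they were 0.17 for the other Mmp genes, 0.01 for the other Adamts genes, -0.01 for the Adamts-like genes, 0.03 for the other inhibitors and receptors and -0.15 for the activators and plasminogen system, while that of the Adam genes was -0.28.

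Most genes of matrix proteins, the substrates of these enzymes, had lower levels in the Paro/Neo hearts. All 18 tested had negative log2 changes, where 53.7% of all tested genes did, with a median of -0.66. Of the 18, 0 passed (limma; 9 lower unadjusted, against 4.37% of all tested genes). For 14 of the 18, or 77.8%, the groups did not overlap on the lower side, against 8.22% of all tested genes. Versican, Vcan, the substrate of Adamts1 and Adamts5, had 7.02, 9.34 and 8.28 TPM in the vehicle hearts and 4.99, 6.33 and 4.67 TPM in the treated ones (log2 change -0.54 ± 0.15 SE, adjusted p 0.414). Smallest in p were Eln, which encodes elastin (16.8 TPM ± 2.68 against 6.47 TPM ± 2.54), Col5a2 (20.3 TPM ± 0.13 against 10.9 TPM ± 2.91) and the fibrillin gene Fbn1 (32.9 TPM ± 5.42 against 17.2 TPM ± 4.74). Without Paro/Neo replicate 1, 17 of the 18 were lower, with a median of -0.31.

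**Figure D4:**
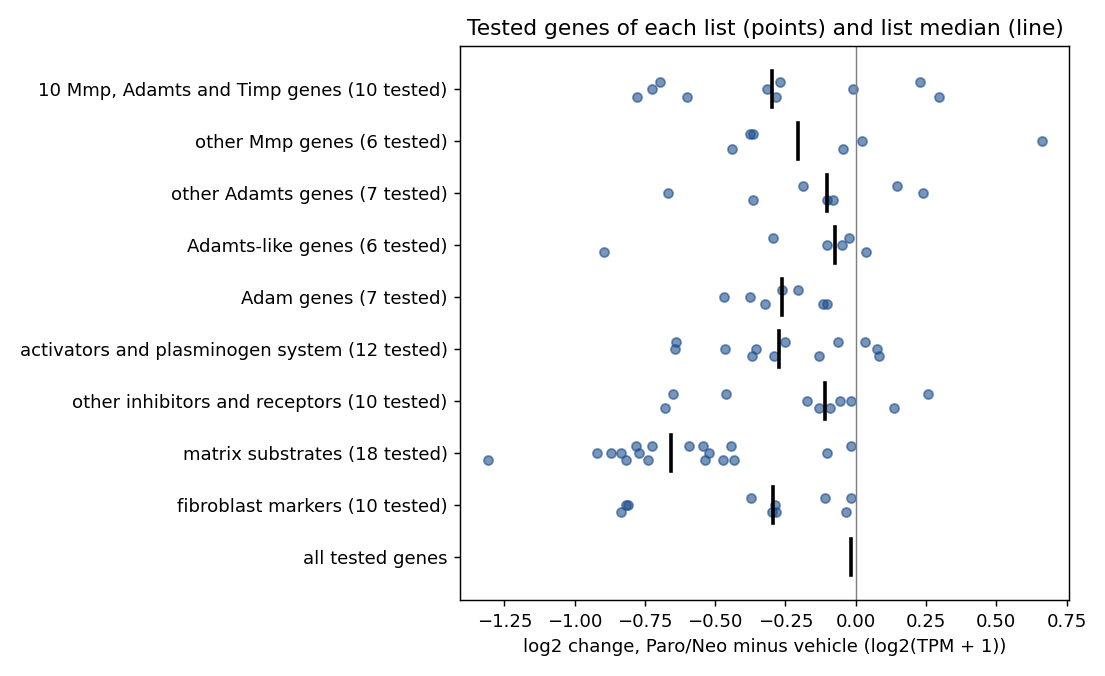
Log2 change, Paro/Neo minus vehicle on log2(TPM + 1) (x axis), of every tested gene in each list (points, spread vertically for legibility) and the list's median (black line); the bottom line is the median of all 12409 tested genes, -0.02. The matrix substrates lie lowest, with a median of -0.66, and the 10 Mmp, Adamts and Timp genes spread from -0.78 to 0.30 around a median of -0.30.

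Fibroblasts, endothelium and epicardial cells make matrix proteins, and their markers were also lower in summed level. The summed level of 10 fibroblast markers was 3732 to 3893 TPM in vehicle and 2947 to 3657 TPM in Paro/Neo hearts. Most of it came from Dcn (1842 TPM ± 30.0 against 1820 TPM ± 85.1) and Gsn (1056 TPM ± 70.8 against 849 TPM ± 278), which both overlapped between the groups. All 10 fibroblast markers had negative log2 changes, where 53.7% of tested genes did, with a median of -0.29. Without Paro/Neo replicate 1 the median was -0.27, with 8 lower and 2 higher. With all libraries 0 passed (limma; 4 lower unadjusted, where 4.37% of tested genes were). These 4 were the collagen gene Col3a1 (219 TPM ± 3.84 against 129 TPM ± 42.5), which is also in the list of matrix substrates, and Meox1 (20.2 TPM ± 6.73 against 10.9 TPM ± 3.20), Tcf21 (26.3 TPM ± 2.25 against 21.2 TPM ± 1.90) and Dpt (294 TPM ± 13.5 against 243 TPM ± 34.1), which are not. The groups did not overlap for Col3a1, Col1a1, Tcf21 and Dpt, on the lower side, where 8.22% of tested genes did not. They overlapped for the other 6 fibroblast markers, among them Meox1, Pdgfra (29.5 TPM ± 1.11 against 27.6 TPM ± 5.54) and Lum (272 TPM ± 26.0 against 266 TPM ± 25.5). Of 8 endothelial markers 7 had negative log2 changes, where 53.7% of tested genes did. Their median was -0.25, and -0.13 without Paro/Neo replicate 1. They summed to 4202 to 4644 TPM against 3519 to 4098 TPM, most of it from Fabp4 alone (3821 TPM ± 181 against 3383 TPM ± 262). Of the 8 endothelial markers 0 passed (limma; 1 lower unadjusted, where 4.37% of tested genes were). The groups did not overlap for Fabp4, Pecam1 and Kdr, on the lower side, where 8.22% of tested genes did not. They overlapped for Cdh5, Tek, Tie1, Egfl7 and Emcn. The 6 epicardial markers summed to 14.2 to 15.2 TPM against 7.70 to 10.6 TPM, most of it from Aldh1a2 and Tbx18. Of these 6, 3 were too low to test: Msln had a higher mean in Paro/Neo hearts, and Upk3b and Krt19 had lower ones. The median of the 3 tested was -0.46, and -0.50 without Paro/Neo replicate 1. The summed levels of 8 mural (559 to 665 against 526 to 771 TPM) and 7 macrophage markers (495 to 615 against 587 to 646 TPM) overlapped, and 5 neutrophil markers summed to 7.52 to 18.1 TPM against 23.1 to 25.0 TPM. Most of the neutrophil sum was S100a8, without overlap, and S100a9, with overlap, from at least 9 to 48 reads per library. The other 3 neutrophil markers were too low to test. The part of these cell types in the levels of the Mmp, Adamts and Timp genes was not tested.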

How the data were processed

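Messenger RNA libraries from the ventricles of 6 mice, 3 vehicle and 3 Paro/Neo, were analysed from 1 deposited table. Its values are TPM computed by the authors, per the file headers, and each column sums to 1000000. Stranded libraries of 76 bp reads came from RNA with an integrity number above 7, per the labels' protocols. The authors used edgeR, Subread, featureCounts, STAR 2.5.3a and FastQC 0.11.5 with the build mm10, in roles and order not stated, per the submitters' processing notes. Annotation, gene lengths, strand setting and feature filter: not given in the sources used here. Groups come from the sample titles, and columns were matched by sample description.

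Values were taken as log2(TPM + 1), a scale that understates changes of low genes. Genes reaching 1 TPM in at least 3 libraries, 12409 in all with the 10 members among them, were fitted with limma 3.58.1 in R 4.3.3 (intensity trend, 4.03 prior degrees of freedom, two-sided, Benjamini-Hochberg over all tested genes). The fit code was run on simulated data with known changes and no outlying library, so that run does not bear on Paro/Neo replicate 1. Whole reads were inferred from the steps of the TPM values, within 0.001 of a read for 17574 of 17574 features above 0. They are lower estimates, used for depth, for reads beside low values and for voom. Members and gene lists were chosen with earlier results of these data known, so no list test was made. Beside the members, the 3 genes of smallest p in each list of pathway genes or matrix substrates and the 3 nearest profiles to each of 3 members are named. Furin, Reck, Vcan, Ctsb, Plat, Plau, the fibroblast and endothelial markers, S100a8, S100a9, Mmp10, Mmp20 and Mmp3 were named after their values were seen. So were the epicardial markers. Alternatives were other pseudocounts, filters, scalings and weights, a replicate block, voom and leaving out each library.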

Additional observations from a re-analysis of the deposited data

How the results depend on the processing

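No member passed the threshold under any of the 14 alternatives run, and the smallest adjusted p was 0.205, for Timp1 with the replicate block. Of 139 member values, 134 kept their direction and 5 reversed, all of Mmp15: its log2 change was 0.013 with median ratio scaling, 0.0135 with quantile normalization and 0.081 with array weights, and with 1 library left out it ran from -0.11 to 0.10, above 0 without vehicle replicate 2 and without Paro/Neo replicate 1 (0.046). A stricter filter on the mean, 5 TPM, dropped Timp1. Leaving out 1 library moved the log2 change of Mmp2 between -0.89 and -0.36, of Timp3 between 0.04 and 0.49 and of Timp4 between 0.07 and 0.58, and Paro/Neo replicate 1 decided the end nearest 0 for Mmp2 and the upper end for both Timp genes. Array weights, which gave that library 0.26 and the others 0.91 to 2.21, put Timp3 at 0.40 and Timp4 at 0.47. The log2 ratio of Mmp2 to Mmp14 differed by -0.06 between the groups and reversed to 0.04 without vehicle replicate 1 and 0.058 without Paro/Neo replicate 1, in a range from -0.19. The cause of these reversals was not tested.

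Over all genes, 15 were higher and 2 lower. These counts were 5 and 1 without a filter and 25 and 2 with the replicate block, and lower genes numbered 1 with the stricter filter, 1 with quantile normalization and 4 with array weights. Without 1 library they ran from 4 to 23 higher and from 0 to 4 lower, the 0 by limma, without vehicle replicate 3 or Paro/Neo replicate 1, where 454 and 492 lower genes had an unadjusted p under 0.05. The replicate numbers were not seen to pair the mice: deviations of same-numbered libraries correlated at -0.05, -0.04 and -0.12 across genes, and no library correlated best with its own number. The block changed no member's call. Depth limits Timp1, with as few as 11 reads.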

Other observations

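Mmp3, the stromelysin-1 gene, varied widely within both groups. It had 12.01, 9.81 and 0.791 TPM in the vehicle hearts and 1.24, 4.23 and 9.09 TPM in the treated ones, from at least 177 reads at the highest to 7 at the lowest. Its log2 change was -0.36 ± 0.79 (SE; 95% interval -2.18 to 1.46).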
